A study of Callithrix jacchus with 5 samples.

Results

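In RNA sequencing of cells from the marmoset Callithrix jacchus, a New World primate, 49 of the 30811 genes in the count table were shared by fibroblasts and induced pluripotent stem (iPS) cells and low in embryonic stem (ES) cells. These genes were selected on their measured levels: they stood at 5 CPM (counts per 1000000 counts of the library) or more in both the fibroblast and the iPS library, and in both at 3 times or more the highest of 3 ES lines. The iPS level also had to stay under 6 times the fibroblast level. Of 59 genes that met these numbers, 10 were set aside by symbol: 5 collagen genes and PRRX1, TWIST2, FAP, TBX15 and NFIX. The elevation over the ES lines in both libraries is therefore given by the selection and is described without a test. In the table used here 30 of the 49 genes have a symbol, and the other 19 are known by identifier only.

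The fibroblast library is titled E01F_Fibroblast_P1. The ES libraries are titled No40_ES_P63, DSY127_ES_P17 and No20_ES_P45 and come from separately named lines, called No40, DSY127 and No20 below. The iPS library is titled RNAiPS_1, and the series title states reprogramming of fibroblasts with RNA. The labels give neither the fibroblasts from which the iPS cells came, nor the culture conditions, age or sex, nor what the P numbers stand for. The fibroblast and iPS groups have 1 library each, so only the ES values carry a standard deviation (SD, n = 3), and it describes the spread between 3 lines. Total counts ranged from 34111715 to 58601185 in the fibroblast and ES libraries and reached 5746449 in the iPS library, where 5 CPM is about 28.7 counts. The module genes had 29 to 1593 counts there (median 140), and 20 of them had fewer than 100. The 95% exact Poisson intervals given for single libraries cover counting error only. In cultures sequenced in bulk, fewer cells of a type and less RNA per cell cannot be told apart.

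Fibroblasts are connective tissue cells that secrete and remodel the extracellular matrix. Their identity is held by mesenchymal transcription factors, among them the NFI, RUNX, MEIS and odd-skipped families, which bind the control regions of matrix and signalling genes. Reprogramming to pluripotency is known to silence such factors while a network around POU5F1, NANOG and SOX2 is switched on. As a check of the labels, POU5F1, a core pluripotency factor, stood at 1.33 CPM in fibroblasts and 1324 CPM in iPS cells, and its ES levels were 1212 to 1826 CPM.

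The module genes as a set ranged from 7.41 to 538 CPM in the fibroblast library (median 38.1) and from 5.05 to 277 CPM in the iPS library (median 24.4). Median levels in the ES lines were 2.47 CPM in No40, 1.94 CPM in DSY127 and 3.38 CPM in No20. The fibroblast level was 3.08 to 84.3 times the highest ES line (median 11.4), and the iPS level 3.04 to 43.9 times (median 6.44). Every module gene had counts in every ES line, the lowest count being 6, so none was silent in ES cells at this depth, although 12 averaged under 1 CPM there. In 7 genes both libraries stood at 10 times the highest ES line or more. For 38 of the 49, the lower bound of the iPS interval itself stayed at 3 times the highest ES line or more. The other 11 lie within the iPS counting error of that limit, with the ES counts taken as exact. When the lower bound also had to reach the floor of 5 CPM, 36 remained.

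By their known roles, assigned after the members were seen, the 30 named genes comprise 13 transcription factors, 5 genes of the extracellular matrix, 4 of signalling, 2 RNA-binding proteins and 6 others. The transcription factors summed to 864.5 CPM in fibroblasts and 769.7 CPM in iPS cells, against 56.4 to 113 CPM in the ES lines. The matrix genes summed to 757 CPM in fibroblasts, 259.8 CPM in iPS cells and 19.6 to 25.1 CPM in the ES lines. The iPS sum was thus below the fibroblast sum in both groups. Of the matrix sums, THBS2 alone gave 538 CPM in fibroblasts and 51.2 CPM in iPS cells. The median ratio of iPS to fibroblast level was 0.68 in the matrix genes and 0.61 in the transcription factors, so the groups are not ranked by their sums.

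**Figure D1:**
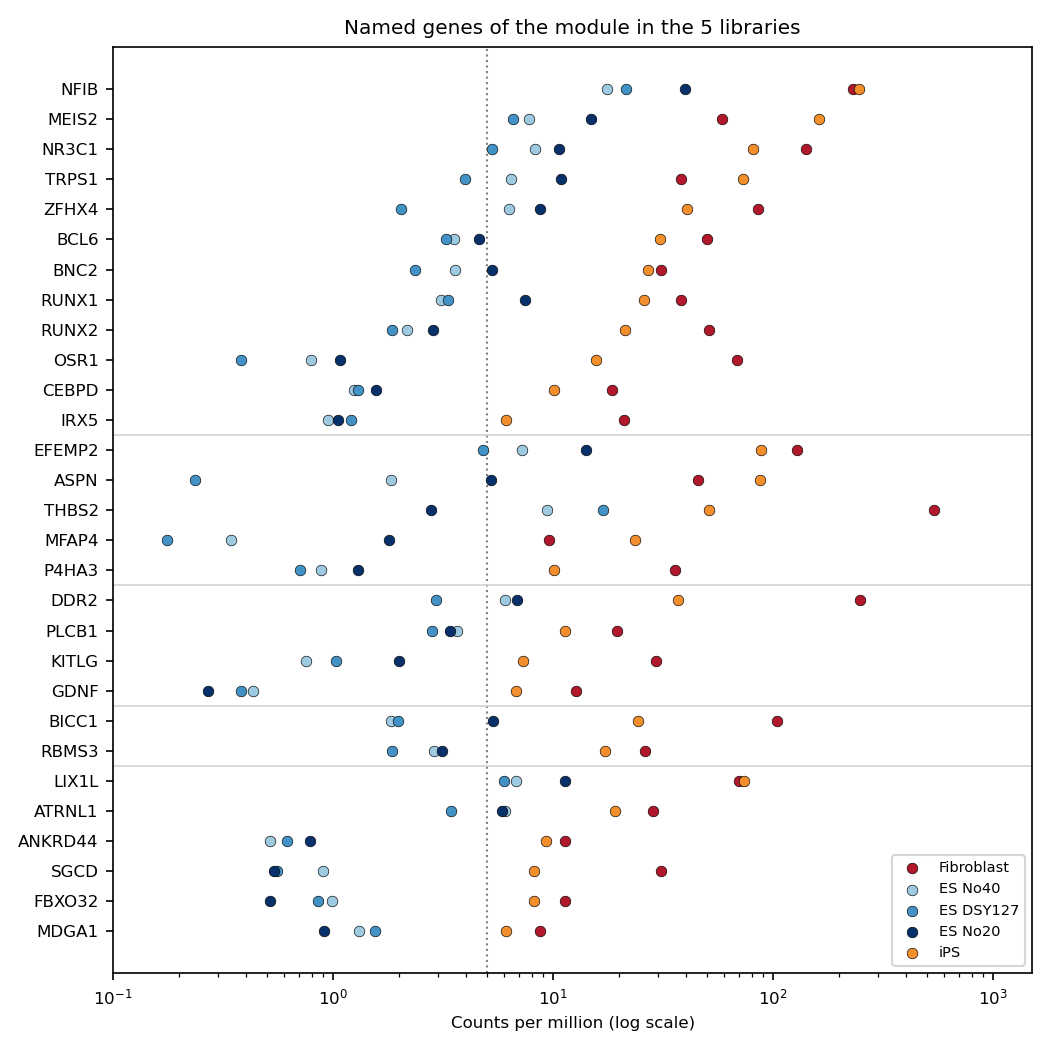
Level of 29 named genes (rows, grouped from top to bottom as transcription factors, matrix, signalling, RNA-binding and other genes) in CPM on a log axis, 1 point per library; the dotted line marks 5 CPM. In every row the fibroblast and iPS points lie to the right of the 3 ES points, which the selection requires, and No20 is the rightmost ES point in 11 of the 12 transcription factors drawn.

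Among the transcription factors, NFIB, a nuclear factor I protein that acts in lung and brain development, stood at 229.6 CPM in fibroblasts (interval 226 to 234) and 246 CPM in iPS cells (interval 233 to 259). Its ES levels were 17.5 CPM in No40, 21.4 CPM in DSY127 and 39.6 CPM in No20. The fibroblast and iPS values thus nearly met, above all 3 ES lines as the selection requires. MEIS2, a homeobox cofactor of HOX and PBX proteins, stood at 58.7 CPM in fibroblasts and 162 CPM in iPS cells, with 7.74, 6.54 and 14.9 CPM in No40, DSY127 and No20. Its iPS level was 2.76 times its fibroblast level (95% counting interval of the log2 ratio 1.36 to 1.57), the highest ratio of the module. TRPS1, a GATA-type zinc finger repressor of cartilage and hair development, stood at 38.1 CPM in fibroblasts and 72.6 CPM in iPS cells, against 6.45, 3.96 and 10.8 CPM in the ES lines in the same order.

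NR3C1, the glucocorticoid receptor, stood at 141 CPM in fibroblasts and 80.8 CPM in iPS cells, with 8.06 ± 2.68 CPM in the ES lines (SD, n = 3). ZFHX4, a large zinc finger homeobox protein, stood at 84.8 and 40.5 CPM, with 6.28, 2.02 and 8.75 CPM in No40, DSY127 and No20. Both were lower in iPS cells than in fibroblasts as measured. BNC2, basonuclin 2, a zinc finger protein of connective tissue and skin pigmentation, stood at 30.9 CPM in fibroblasts, 27.0 CPM in iPS cells and 3.74 ± 1.48 CPM in the ES lines. By total counts, the counting interval of its log2 ratio of iPS to fibroblast level, -0.44 to 0.04, includes equality.

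Both RUNX genes of the module, which encode DNA-binding partners of CBFB, had lower iPS than fibroblast levels. RUNX1, best known from blood formation, stood at 37.9 CPM in fibroblasts and 25.9 CPM in iPS cells (interval 21.9 to 30.4), with 3.07, 3.31 and 7.42 CPM in No40, DSY127 and No20. RUNX2, the master regulator of bone formation, stood at 51.0 CPM in fibroblasts and 21.2 CPM in iPS cells (interval 17.6 to 25.4), with 2.17, 1.85 and 2.84 CPM in the ES lines. RUNX1 lay 3.49 times above its highest ES line in iPS cells, near the limit of the selection, and RUNX2 7.47 times. Of the blood markers measured beside RUNX1, PTPRC, the pan-leukocyte antigen CD45, had no count in the iPS library and SPI1, a myeloid factor, stood at 0.348 CPM. CD34, a marker of blood progenitors and vessels, was highest in the iPS library, at 10.1 CPM, with 2.13 CPM in fibroblasts and 1.85 to 8.65 CPM across the ES lines.

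OSR1, an odd-skipped zinc finger factor of limb and kidney mesenchyme, stood at 68.4 CPM in fibroblasts and 15.7 CPM in iPS cells (interval 12.6 to 19.3), and at 0.795, 0.381 and 1.08 CPM in No40, DSY127 and No20. It was 63.4 and 14.5 times above its highest ES line, the widest separation among the transcription factors. IRX5, an Iroquois homeobox factor, stood at 21.0 CPM in fibroblasts and 6.09 CPM in iPS cells, with 1.07 ± 0.13 CPM in the ES lines. CEBPD, a basic leucine zipper factor of inflammatory and fat cell programmes, stood at 18.5 and 10.1 CPM, with 1.37 ± 0.17 CPM. BCL6, a zinc finger repressor of germinal centre B cells that other cells also make, stood at 50.2 and 30.4 CPM, with 3.79 ± 0.70 CPM. In these 4 factors, too, the fibroblast library was the highest of the 5. That no ES line reached the iPS level is given by the selection.

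The matrix genes split in direction between the fibroblast and iPS libraries. ASPN, asporin, a small leucine-rich proteoglycan that binds TGF-beta, stood at 45.6 CPM in fibroblasts and 87.4 CPM in iPS cells (interval 79.9 to 95.4). Its ES levels were uneven, at 1.83 CPM in No40, 0.234 CPM in DSY127 and 5.22 CPM in No20. MFAP4, a microfibril-associated glycoprotein of elastic fibres, was likewise higher in iPS cells, at 23.5 CPM (interval 19.7 to 27.8) against 9.52 CPM in fibroblasts, with 0.344, 0.176 and 1.79 CPM in the ES lines. The remaining 3 were lower in iPS cells. THBS2, thrombospondin 2, which restrains vessel growth and collagen fibril assembly, stood at 538 CPM in fibroblasts and 51.2 CPM in iPS cells, with 9.35, 16.8 and 2.79 CPM in No40, DSY127 and No20. Its iPS level was 9.51% of its fibroblast level and only 3.04 times DSY127, the least of any module gene.

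EFEMP2, fibulin 4, needed for elastic fibre assembly and collagen cross-linking, stood at 128 CPM in fibroblasts and 87.7 CPM in iPS cells, with 7.18, 4.81 and 14.0 CPM in the ES lines. P4HA3, a catalytic subunit of collagen prolyl 4-hydroxylase, stood at 35.9 and 10.1 CPM, with 0.881, 0.704 and 1.30 CPM. That neither overlapped an ES line is given by the selection.

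The signalling genes were all lower in iPS cells than in fibroblasts. DDR2, a receptor tyrosine kinase that binds fibrillar collagen, stood at 247 CPM in fibroblasts and 37.1 CPM in iPS cells (interval 32.3 to 42.4), with 6.02, 2.93 and 6.83 CPM in No40, DSY127 and No20. KITLG, stem cell factor, the ligand of the receptor KIT, stood at 29.4 and 7.31 CPM, with 0.752, 1.03 and 1.98 CPM in the ES lines. GDNF, glial cell line-derived neurotrophic factor, a ligand of the RET receptor complex, stood at 12.6 and 6.79 CPM (iPS interval 4.83 to 9.28), with 0.430, 0.381 and 0.269 CPM. GDNF thus lay 29.4 and 15.8 times above its highest ES line while resting on 39 iPS counts. PLCB1, a phospholipase C that acts downstream of G protein-coupled receptors, stood at 19.4 and 11.3 CPM, with 3.28 ± 0.43 CPM in the ES lines.

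BICC1, an RNA-binding protein of kidney and left-right development, stood at 104 CPM in fibroblasts, 24.4 CPM in iPS cells and 3.04 ± 1.99 CPM in the ES lines. RBMS3, an RNA-binding protein of mesenchymal cells, stood at 26.02, 17.2 and 2.62 ± 0.68 CPM. Of the other named genes, LIX1L had nearly equal fibroblast and iPS levels, at 69.9 and 73.8 CPM, with 6.75, 5.98 and 11.3 CPM in No40, DSY127 and No20. SGCD, delta-sarcoglycan of the dystrophin-associated complex, stood at 31.0, 8.18 and 0.666 ± 0.205 CPM, and FBXO32, atrogin 1, a ubiquitin ligase subunit of muscle wasting, at 11.3, 8.18 and 0.784 ± 0.244 CPM. ANKRD44, ATRNL1 and MDGA1 made up the group, with iPS levels of 9.22, 19.1 and 6.09 CPM and fibroblast levels of 11.4, 28.3 and 8.72 CPM.

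Among the 19 genes known by identifier only, ENSCJAG00000021562 (chromosome 7, 85936777 to 85943449 on a genome build that the sources used here do not name) had the clearest separation of the whole module. It stood at 54.4 CPM in fibroblasts and 59.2 CPM in iPS cells (interval 53.04 to 65.8), with 0.408, 0.850 and 1.35 CPM in No40, DSY127 and No20, that is, 40.4 and 43.9 times above the highest ES line. ENSCJAG00000029089 (chromosome 11, 128448682 to 128448775), a gene model of 94 bases, had the lowest iPS share. It stood at 185 CPM in fibroblasts and 7.83 CPM in iPS cells, or 4.24% of the fibroblast level, with 2.19, 0.469 and 0.612 CPM in the ES lines. Both identifiers were singled out after their values were seen.

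Levels of different genes can be set side by side only per length, here as CPM per kilobase of the gene model. On that scale the iPS library held 1.72 to 83.3 CPM per kilobase over the module (median 9.35). The upper end was ENSCJAG00000029089, whose gene model of 94 bases held 45 iPS counts, and ENSCJAG00000018321 followed at 54.95. LIX1L at 52.4, EFEMP2 at 43.0 and MEIS2 at 39.5 were the named genes with the highest values. In the fibroblast library THBS2 stood at 136 and DDR2 at 74.7 CPM per kilobase, above the other named genes.

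The ratio of iPS to fibroblast level was limited by the selection at its upper end and through the floors and fold limits, and it varied widely. It ran from 0.042 to 2.76 with a median of 0.633 (median log2 ratio -0.66). The iPS level was below the fibroblast level in 38 genes and above it in 11. By counting intervals on total counts, 34 genes were lower, 8 higher and 7 could not be told from equal, with no replicate of either library to show how far cultures vary. The transcription factors had a median ratio of 0.607 (0.229 to 2.76), the matrix genes of 0.684 (0.095 to 2.47) and the signalling genes of 0.392 (0.150 to 0.583). Scaling by TMM factors, which allow for a few abundant genes filling a library, moved every log2 ratio by -0.34. By the counting intervals 42 genes were then lower, 7 higher and 0 could not be told from equal, BNC2 (log2 ratio -0.19 by total counts, -0.54 with TMM) being among the lower. NFIB turned from slightly above to below its fibroblast level (log2 ratio 0.10 by total counts, -0.24 with TMM), and so did LIX1L (0.08 and -0.26).

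**Figure D2:**
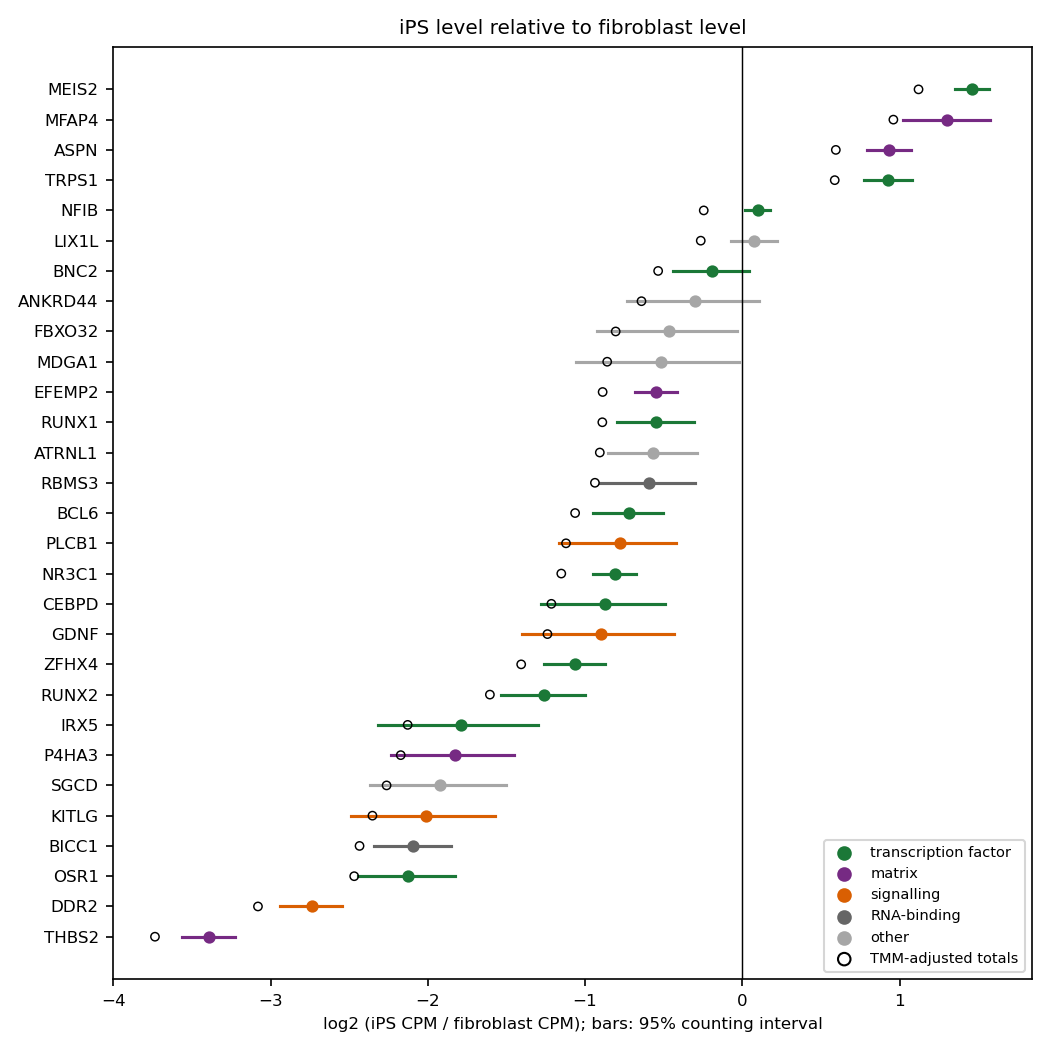
Log2 ratio of iPS to fibroblast CPM for 29 named genes, sorted; filled points are ratios by total counts, bars are 95% counting intervals and open circles are ratios with TMM-adjusted totals. MEIS2, MFAP4, ASPN and TRPS1 lie to the right of equality under both scalings, and THBS2 and DDR2 lie farthest to the left.

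Markers of fibroblasts were examined in the same libraries, since the series title names fibroblasts as the starting cells. The 16 measured markers summed to 60942 CPM in fibroblasts and 11897 CPM in iPS cells, against 1889 to 3122 CPM across the ES lines. Most of the iPS sum came from collagens: COL1A1 gave 5067 CPM, COL1A2 3549 CPM and COL3A1 1734 CPM. On the fibroblast side 14 of the 16 met the floor and the 3-fold limit, and on the iPS side 7 did: COL1A1, COL1A2, COL3A1, FAP, PRRX1, TWIST2 and TBX15, all among the genes set aside by symbol. The iPS level of the 16 markers ranged from no count to 791% of the fibroblast level, with a median of 20.7%. FBLN1, fibulin 1, gave the highest share, at 24.2 CPM in fibroblasts and 191 CPM in iPS cells, with 253 to 349 CPM across the ES lines. PDGFRB, another platelet-derived growth factor receptor, stood at 41.2%, and 7 markers stood under 10%. TSPAN11, a tetraspanin, had 237 CPM in fibroblasts and no count in the iPS library. With the floor of 3 counts taken for a zero, that allows up to 0.22% of the fibroblast level. WNT2, a secreted WNT ligand, stood at 300.5 CPM in fibroblasts and 0.348 CPM in iPS cells on 2 counts, or 0.116% (counting interval 0.014% to 0.418%). DCN, decorin, stood at 1.31% of its fibroblast level in the iPS library, PDGFRA, a platelet-derived growth factor receptor, at 2.88%, and VIM, vimentin, at 6.56%. In the module THBS2 and ENSCJAG00000029089 were under 10%. The floor and fold limits of the selection keep out low iPS shares, so the spread of the module and that of the markers are not compared.

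**Figure D3:**
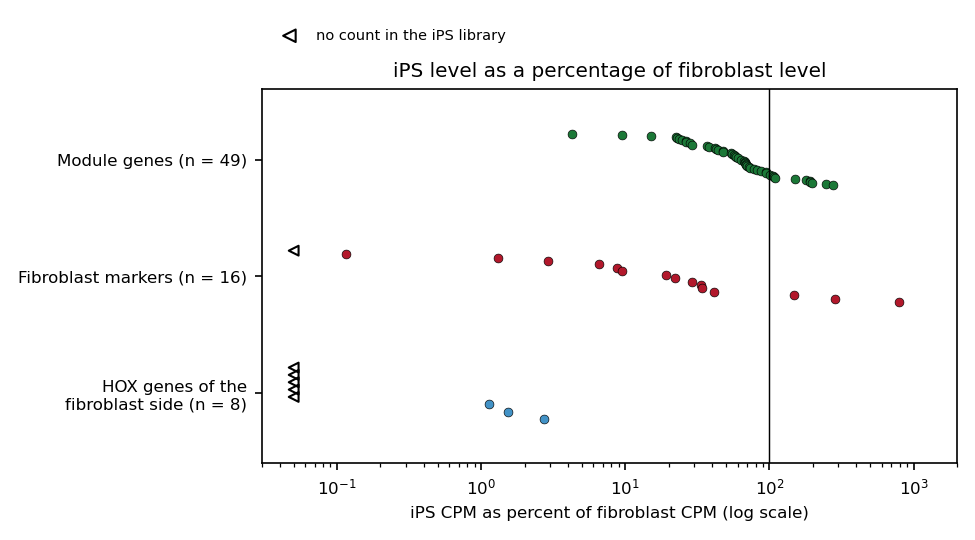
iPS level as a percentage of the fibroblast level (log axis) for the 49 module genes, the 16 measured fibroblast markers and the 8 HOX genes that meet the fibroblast side of the selection; triangles mark genes with no count in the iPS library and are drawn at the left edge. The module spans 4.24% to 276%, the markers reach from no count to 791%, and the 3 HOX genes with an iPS count stay at 2.74% or below.

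Markers of other cell types were summed in the same way. The 4 blood markers, with RUNX1 among them, summed to 36.4 CPM in iPS cells and 40.6 CPM in fibroblasts, against 8.68 to 17.1 CPM across the ES lines. RUNX1, a module gene selected on these levels, gave 25.9 CPM of the iPS sum and 37.9 CPM of the fibroblast sum. Its part in the contrast with the ES lines is given by the selection. In fibroblasts the other blood markers stood at 2.13 CPM (CD34), 0.444 CPM (SPI1) and 0.068 CPM (PTPRC). Endothelial markers summed to 261 CPM in iPS cells, 328 to 499 CPM across the ES lines and 5.89 CPM in fibroblasts, and smooth muscle and pericyte markers to 306 CPM in iPS cells, 483 to 1303 CPM across the ES lines and 6020 CPM in fibroblasts. Skeletal muscle markers summed to 25.4 CPM in iPS cells, 21.2 CPM in fibroblasts and 20.03 to 143 CPM across the ES lines, with MYOD1 and MYF5 at 0 in the iPS library. Neural crest and melanocyte markers summed to 253 CPM in iPS cells, 11.5 CPM in fibroblasts and 313 to 337 CPM across the ES lines, with TYR at 0 in the iPS library. Neural markers summed to 630.3 CPM in iPS cells, 457 CPM in fibroblasts and 582 to 1166 CPM across the ES lines, with NEUROG2 and NEUROD1 at 0 in the iPS library. Of the iPS sum NES gave 433 CPM and TUBB3 187 CPM, and NEUROD1 had no count in any library. Trophoblast and amnion markers summed to 374 CPM in iPS cells, of which TFAP2A gave 242 CPM, to 25.5 CPM in fibroblasts and to 28.4 to 354 CPM across the ES lines, with CDX2, CYP19A1 and VTCN1 at 0 in the iPS library. Keratinocyte markers summed to 1.74 CPM in iPS cells, 1.999 to 2.77 CPM across the ES lines and 0.495 CPM in fibroblasts, with KRT14 at 0 in the iPS library. The zeros in the iPS library, the shallowest one, do not show that a cell type was absent. MYF5, TYR and KRT14 had 8 counts or fewer in every library, and CYP19A1 had none in any ES line. The part of cell mixture in the module's iPS levels was not tested beyond these values.

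The families of named genes were followed through gene lists, together with adhesion, contractile and HOX genes, which hold no module gene. Of all 30811 genes, 2.88% met the fibroblast side of the selection (5 CPM or more and 3 times or more the highest ES line) and 1.17% the iPS side. Of 58 measured mesenchymal and patterning transcription factors, 24 met the fibroblast side and 15 the iPS side, 7 of them module genes (NFIB, MEIS2, RUNX1, RUNX2, BNC2, OSR1 and IRX5). Of 45 matrix glycoproteins, 25 met the fibroblast side and 4 the iPS side, 3 of them module genes (EFEMP2, THBS2 and MFAP4). Of 15 proteoglycans 7 and 2 did, of 39 matrix remodelling enzymes 16 and 3, and of 43 growth factors and receptors 17 and 4. The retinoid and steroid list, which holds NR3C1, gave 4 of 25 on the fibroblast side and 1 on the iPS side, and the lipid and adipocyte list, which holds CEBPD, 6 of 14 and 1. Integrins and adhesion genes gave 16 of 33 on the fibroblast side and 0 on the iPS side, and contractile and actin genes 13 of 33 and 1. With TMM-adjusted totals the iPS side counts of these lists stayed as given. On the fibroblast side the remodelling enzymes rose to 22 and the contractile genes to 18. Smaller rises took the matrix glycoproteins to 27, the transcription factors to 25, and the integrins and the growth factors to 18 each. HOX genes went from 8 to 10, and the other lists named here did not change. Because the module genes in these lists were chosen by the same limits, the counts are a description.

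**Figure D4:**
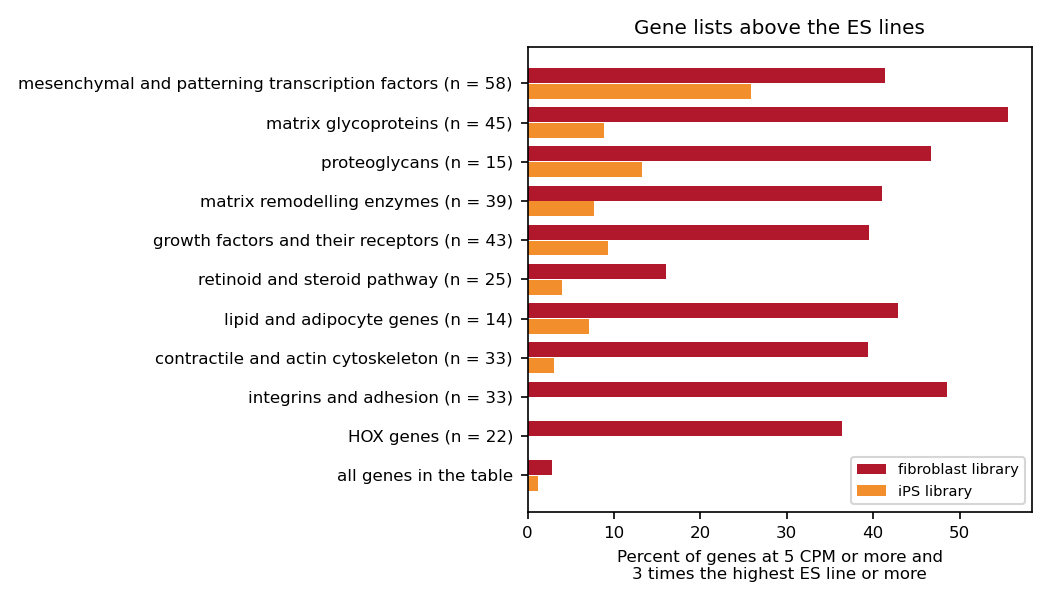
Percentage of the measured genes of each list that stand at 5 CPM or more and at 3 times the highest ES line or more in the fibroblast library and in the iPS library, with all genes of the table at the bottom. The fibroblast bars lie between 16% and 55.6% in the 10 lists, while the iPS bar reaches 25.9% in the transcription factors and 13.3% or less in the others.

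Other transcription factors of the list were high in fibroblasts but not in iPS cells. SNAI2, a repressor of epithelial genes, stood at 144 CPM in fibroblasts, 1.57 CPM in iPS cells and 5.04 ± 2.45 CPM in the ES lines. PRRX2, a paired-related homeobox factor, stood at 118, 3.48 and 4.73 ± 2.51 CPM, and CREB3L1, a factor that drives collagen secretion, at 402, 20.9 and 17.4 ± 2.71 CPM. In SNAI2 and PRRX2 the iPS level was below the highest ES line, and in CREB3L1 just above it. HOX genes, which encode position along the body axis, were the clearest case: 8 of 22 met the fibroblast side, at 5.55 to 30.5 CPM, 5 of these 8 had no count in the iPS library, and the highest reached 0.696 CPM there.

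All 49 genes entered a fit of all 5 libraries across 17462 genes (edgeR quasi-likelihood test, adjusted p under 0.05), in which the spread comes from the ES lines alone. In the fibroblast comparison with the ES lines all 49 were called higher, where 8.8% of all genes were called higher and 9.28% lower. In the iPS comparison 2 of 49 were called higher, ENSCJAG00000021562 and ENSCJAG00000019128, where 0.109% of all genes were called higher and 0% lower. At an unadjusted p under 0.05 in the same edgeR test, 49 of 49 were higher. Over all 17462 genes 971 were higher and 547 lower at that unadjusted limit. At an adjusted p under 0.05, DESeq2 called 65 of 15216 genes lower and limma voom 0 of 17462. The selection used both contrasts, so nothing is read from these counts. The iPS count depended on the ES lines: it was 39 without No20, where 1.49% of all genes were called higher, 7 without DSY127 (0.239%) and 0 without No40 (0%). It was 44 with DESeq2 (2.31% of all genes). Of the listed transcription factors, 57 entered the fit, and 30 were called higher and 2 lower in fibroblasts. In iPS cells 3 were called, PRRX1, TBX15 and NFIX, all higher and all set aside from the module by symbol.

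How the ES lines differ among themselves was limited by the selection only through the highest line, not in which line that is. No20 was the highest ES line for 37 of the 49 module genes, No40 for 7 and DSY127 for 5. Over all 17462 genes tested, No20 was highest in 34.2%, and over the 10212 whose ES mean lay in the range of the module in 34.4%. No20 was highest in 12 of the 13 transcription factors (IRX5 being the exception), 4 of 5 matrix genes, 2 of 4 signalling genes and 2 of 6 other named genes. The level in No20 was a median 1.57 times the mean of the other ES lines (0.213 to 6.88), against 0.967 over all genes tested. ASPN, 5.06 times, and MFAP4, 6.88 times, had the widest gaps, whereas THBS2 and FBXO32 were lowest in No20, at 0.213 and 0.559 times. DSY127 was the lowest line for 27 genes, No40 for 15 and No20 for 7.

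The share of genes highest in No20 was also above 34.2% outside the module. Among 299 genes tested that met only the iPS side of the selection, No20 was the highest line for 64.5%, and among 826 that met only the fibroblast side for 44.6%. With 1 library per line there is no test of the difference between lines. Some other values also differed in No20. The pluripotency markers summed to 4133 CPM there against 8420 CPM in No40 and 7747 CPM in DSY127. HOX genes summed to 153 CPM against 26.2 and 29.8 CPM, and VIM stood at 1328 CPM against 454 and 472 CPM. Lists that hold module genes did not share a direction. Mesenchymal and patterning transcription factors summed to 963 CPM in No20, 970 CPM in No40 and 878 CPM in DSY127. In the same order, matrix glycoproteins summed to 5169, 7241 and 5718 CPM. Proteoglycans summed to 756, 1431 and 1010 CPM and matrix remodelling enzymes to 2888, 2251 and 2625 CPM. The fibroblast markers, VIM among them, summed to 3122 CPM in No20, 2895 CPM in No40 and 1889 CPM in DSY127. They did not share an order of lines. PDGFRA, like VIM, was highest in No20, at 65.1 CPM against 28.9 CPM in No40. COL1A1 and COL3A1 were highest in No40, at 1284 and 255 CPM against 914 and 67.2 CPM in No20. The part of these differences in the module's ES levels was not tested.

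**Figure D5:**
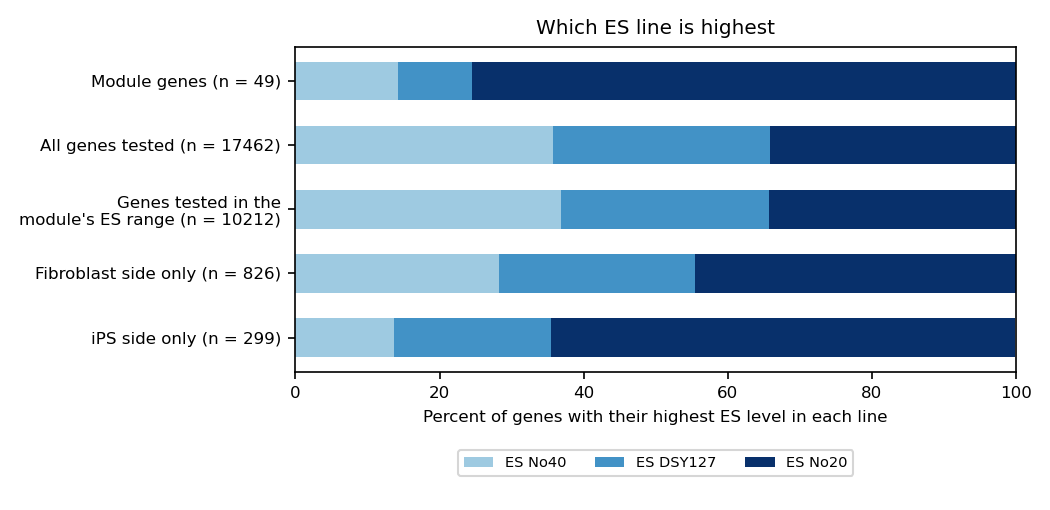
Percentage of genes whose highest ES level falls in No40, DSY127 or No20, for the module, all genes tested, genes tested whose ES mean lies in the module's range, and genes that met only the fibroblast or only the iPS side of the selection. No20 is highest for 75.5% of the module and 64.5% of the genes of the iPS side only, against 34.2% of all genes tested.

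The module genes lay on 19 chromosomes, 5 each on chromosomes 12 and 16 (10.2% of the module each, against 5.21% and 2.3% of the genes tested) and none on X. The closest neighbours were FBXO32 (chromosome 16, 71282162 to 71320609) and ENSCJAG00000000934 (71517331 to 71546713), 0.197 Mb apart. NFIB (chromosome 1, 115903755 to 116230331) and BNC2 (118364731 to 118817207) were 2.13 Mb apart. The gene models of the module spanned a median of 51532 bases from first to last exon, against 21939 over the genes tested and 47786 over the genes that met only the fibroblast side, while their summed exon lengths were closer (median 2444 against 2073 bases over the genes tested).

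At the borders of the selection, MDGA1 was the named gene nearest above the fibroblast floor, at 8.72 CPM, and MDGA1 and IRX5 were nearest above the iPS floor, both at 6.09 CPM. SCN2A, a sodium channel subunit, at 4.70 CPM, and ATOH8, a basic helix-loop-helix factor, at 4.53 CPM in iPS cells fell just below. THBS2 and PLCB1, at 3.04 and 3.10 times the highest ES line in iPS cells, lay just inside that limit, and NR2F1, an orphan nuclear receptor, at 2.88 times just outside. On the fibroblast side ENSCJAG00000004858 at 3.08 times was just inside and MARCHF3, a membrane-associated ubiquitin ligase, at 2.99 times just outside. The upper limit on the ratio removed 1 gene, ENSCJAG00000021367, at 17.3 times its fibroblast level.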

How the data were processed

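RNA was extracted with an RNeasy kit and libraries followed Illumina protocols, per the labels' protocols. The values the authors deposited are raw counts per gene in whole numbers, and the 5 per-library files held the same counts as the series table. The submitters' processing notes name featureCounts 1.5.2, STAR 2.5.3a and Trim Galore 0.4.0, with neither role nor order. The sources used here name no genome build and no settings for strand, multi-mapping or overlap, so genes that overlap or have near copies may share reads. Of 30811 identifiers, 12660 (41.1%) have a symbol. No sequences were used. 1 named member counts in the totals but is not reported here.

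CPM values are counts divided by column totals. In the fit, the lone fibroblast and iPS libraries are assumed to vary like the ES lines. Intervals are exact Poisson for single levels and exact conditional binomial for ratios. The floor for a zero is 3 counts. The fit used R 4.3.3, edgeR 4.0.16 (filterByExpr, TMM, estimateDisp, glmQLFit, glmQLFTest, Benjamini-Hochberg over all genes tested), with limma 3.58.1 and DESeq2 1.42.0 as alternatives. TMM factors were 0.813 for fibroblasts, 1.05 to 1.07 for the ES lines and 1.03 for iPS cells. On counts simulated for the iPS comparison (17017 genes) the test found 15% of 4-fold and 76% of 16-fold changes and made 5 false calls. For the fibroblast comparison (16979 genes) it found 10% and 84% and made 4 false calls. These simulations changed 100 genes at each fold, in the lone library of the comparison only, and gave every gene the same dispersion. The measured counts differ in both respects, so their rates of recovery and of false calls were not tested.

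The members and lists were chosen with earlier results of these data known. Genes were named by rule: members with a symbol that led by iPS CPM or by separation from the ES lines, members of the lists, and genes nearest each limit. The remaining named members, and SNAI2, PRRX2, CREB3L1 and the markers singled out, were chosen after their values were seen.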

Additional observations from a re-analysis of the deposited data

How the results depend on the processing

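The module held 49 genes by total counts and 64 with TMM or RLE totals (48 shared), 58 with upper-quartile totals and 50 without the upper limit. A fold of 2 gave 106 genes and a fold of 4 gave 35, and floors of 1 and 10 CPM gave 64 and 37. Leaving out 1 ES line gave 59 to 76 genes, all 49 included, the most without No20. At the lower bound of the iPS counts 36 remained. The median log2 ratio of iPS to fibroblast was -0.66 by total counts and -1.03 with RLE totals. NFIB's log2 ratio turned to -0.24 with TMM and -0.27 with RLE totals. Genes called in the fibroblast comparison numbered 3157, 4766 with DESeq2 and 1742 (without No40) to 4550 (without No20) without 1 ES line, and 41 to 49 module genes were among them. In the iPS comparison 19 were called, 204 without a low-count filter, 416 with DESeq2, 5 with limma voom and 0 (without No40) to 268 (without No20) without 1 ES line. Module genes among these were 2, and 34, 44, 0 and 0 to 39 under the same alternatives. The cause of these shifts was not tested. With total counts alone the fibroblast split was 1066 higher and 2016 lower, and with limma voom 1674 higher and 1009 lower. No20 was the highest ES line for 37 genes with TMM as well, an alternative added after seeing the data. No paired analysis was possible because only the ES group is replicated. Depth sets the width of the counting intervals. With TMM no ratio interval spanned equality (7 by total counts), an alternative also added after seeing the data.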

Other observations

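Several mesenchymal transcription factors were high in the iPS library yet missed the fibroblast side of the selection since the fibroblast level was under 3 times the highest ES line. ZEB2, a repressor of E-cadherin, stood at 427 CPM in iPS cells and 133 CPM in fibroblasts, with 37.5, 33.0 and 60.9 CPM in No40, DSY127 and No20. Symbols starting with ZEB were also excluded by the selection. EBF1, a factor of B cell and stromal development, stood at 130.2 CPM in iPS cells and 26.5 CPM in fibroblasts, with 4.82, 2.81 and 10.02 CPM. NFIA, of the same family as NFIB, stood at 143 CPM in iPS cells and 21.0 CPM in fibroblasts, with 19.4, 4.66 and 13.4 CPM. Its iPS level, 6.82 times its fibroblast level, was also over the upper limit of 6. In all 3 the iPS library was the highest of the 5. None was called in the iPS comparison (edgeR quasi-likelihood test, adjusted p = 0.0559, 0.0775 and 0.12). These genes were chosen after their values were seen.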
